A study of Homo sapiens with 6 samples.

Results

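Among the genes read by the arrays, 206 of 18417 were long intergenic non-coding RNA genes whose symbol is LINC followed by a number. They were found by name: every probe set paired with exactly 1 symbol of that form was taken, symbols with an antisense part were left out, and each gene was read by its probe set of highest mean over the 6 arrays. The samples were U-87 cells, an established human glioma line, grown in DMEM with fetal bovine serum. The 3 arrays labelled P68 Knockdown and the 3 labelled P68 Wild Type came from total RNA, and the treatment note names transfection with siP68 or with NC without tying NC to the wild-type arrays. P68 is the RNA helicase encoded by DDX5, and the study asked how lowering it alters expression in glioma cells. The labels do not state that replicates were separate cultures, and the p-values then reflect array-to-array spread that could be technical only.

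A long intergenic non-coding RNA is a transcript with little or no protein-coding potential that is made from its own promoter between protein-coding genes, usually by RNA polymerase II, and that is often capped, spliced and polyadenylated. The LINC symbol with a running number is the name given to such a gene until a function is known, so the 206 genes share a naming history rather than a pathway. Members are known as a class for low levels and for expression restricted to few tissues, and many nuclear long non-coding RNAs are kept scarce by the nuclear exosome. The helicase itself works with RNA cofactors: it is known to bind SRA1, the steroid receptor RNA activator, when it acts as a transcriptional coactivator.

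The naming history was visible in the reference gene table (GRCh38.p14). Of the 206 genes, 201 were found there by gene identifier, all 201 as long non-coding RNA genes, and they made up 8.69% of the 2312 LINC genes of that table. An older open reading frame name, such as C17orf55 for LINC00482, was carried by 89 of the 206, an older NCRNA name by 36, and 98 carried at least 1 of these older names. The 5 genes without an entry were LINC00205, LINC00341, LINC00596, LINC00889 and LINC01296. No member overlapped a microRNA gene in that table, 20 overlapped a protein-coding gene, 79 overlapped another kind of gene and 102 overlapped none.

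Promoter sequence was taken from RefSeq (GRCh38.p14), which holds a window around the gene's start, most of it upstream, for 146 of the 206. These promoters were poorer in CG dinucleotides than most: the median was 7 CG per promoter (quartiles 3 and 14.8), against 14 over all 35116 promoters and 21 over 22198 promoters of protein-coding genes. Members with a mean signal at or above the median gene had a median of 11 CG (42 promoters), and members below it had 5.5 (104 promoters). Across the 146 genes, CG count and mean signal had Pearson's r = 0.36 and Spearman's rho = 0.39, as a description of probe sets whose signals also depend on their own base composition. The promoters of 6 members are printed to show that range, 5 of them because their knockdown and wild-type arrays did not overlap at a signal at or above the median gene, and LINC02939 because it had the highest signal. Each runs 5′ to 3′ on the gene's strand, and capitals mark CG. They lie at chr2:129273842-129274141 (minus strand), chr17:81309199-81309498 (minus strand), chr1:112850594-112850893 (minus strand), chr14:98711363-98711662 (plus strand), chr6:44000335-44000634 (plus strand) and chr22:46070972-46071271 (minus strand), in this order.
LINC01854: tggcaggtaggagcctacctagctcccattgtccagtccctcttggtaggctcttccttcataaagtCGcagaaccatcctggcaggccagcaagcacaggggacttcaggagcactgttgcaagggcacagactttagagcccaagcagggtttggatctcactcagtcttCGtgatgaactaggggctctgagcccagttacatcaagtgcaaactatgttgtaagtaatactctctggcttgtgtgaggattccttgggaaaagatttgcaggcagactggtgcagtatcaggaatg
LINC00482: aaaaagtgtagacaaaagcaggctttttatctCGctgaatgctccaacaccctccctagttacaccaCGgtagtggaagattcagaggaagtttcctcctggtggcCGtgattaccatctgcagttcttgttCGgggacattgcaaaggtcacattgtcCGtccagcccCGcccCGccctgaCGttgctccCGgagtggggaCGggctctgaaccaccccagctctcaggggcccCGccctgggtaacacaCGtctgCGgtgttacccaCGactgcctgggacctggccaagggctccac
LINC01356: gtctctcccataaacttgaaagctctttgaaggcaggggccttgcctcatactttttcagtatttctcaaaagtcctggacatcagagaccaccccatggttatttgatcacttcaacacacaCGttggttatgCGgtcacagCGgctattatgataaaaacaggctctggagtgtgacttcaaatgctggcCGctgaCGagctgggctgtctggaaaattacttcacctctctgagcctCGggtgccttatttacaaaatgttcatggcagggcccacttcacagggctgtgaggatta
LINC02914: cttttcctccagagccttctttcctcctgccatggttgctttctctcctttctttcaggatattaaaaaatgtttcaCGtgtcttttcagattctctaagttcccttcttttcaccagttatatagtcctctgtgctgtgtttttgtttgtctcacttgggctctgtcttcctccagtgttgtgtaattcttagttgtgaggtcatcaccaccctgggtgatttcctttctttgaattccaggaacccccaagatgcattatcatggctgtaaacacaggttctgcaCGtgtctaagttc
LINC03040: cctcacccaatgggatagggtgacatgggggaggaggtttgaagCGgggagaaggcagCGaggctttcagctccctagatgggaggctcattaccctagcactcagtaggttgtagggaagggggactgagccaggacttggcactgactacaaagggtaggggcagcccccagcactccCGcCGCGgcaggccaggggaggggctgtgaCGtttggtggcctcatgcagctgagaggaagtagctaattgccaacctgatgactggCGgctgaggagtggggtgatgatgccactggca
LINC02939: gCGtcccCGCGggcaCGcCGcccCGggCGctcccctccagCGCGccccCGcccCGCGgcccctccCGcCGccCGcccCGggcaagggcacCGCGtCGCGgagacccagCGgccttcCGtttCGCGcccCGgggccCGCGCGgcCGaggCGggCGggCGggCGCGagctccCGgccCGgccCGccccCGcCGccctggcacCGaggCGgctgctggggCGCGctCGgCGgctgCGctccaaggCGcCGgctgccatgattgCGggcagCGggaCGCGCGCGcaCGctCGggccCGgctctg

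LINC02939 carried 57 CG in this window and LINC00482 carried 14, while LINC01854 and LINC02914 carried 2 each, LINC01356 carried 6 and LINC03040 carried 7. For comparison, 3 motifs were searched on both strands. The AP-1 motif TGANTCA was found in 7.53% of the 146 promoters and in 7.71% of all promoters, the TCF motif ATCAAAG in 4.11% (6 promoters) and 2.62%, and the TATA box letters TATAAA in 14.4% and 11.5%. None of the 6 printed promoters held any of these letter strings, which says only that they are not in this window.

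The arrays gave a log2 signal for 29096 probe sets with array medians from 4.32 to 4.37. DDX5, the targeted gene, read 9.47, 9.79 and 9.91 in knockdown replicates 1, 2 and 3 and 10.09, 10.25 and 10.30 in the wild type. Its groups did not overlap, and the knockdown signal was 71.2% of the wild-type signal (log2 difference -0.49 ± 0.13, SE, n = 3 each; exact permutation test, two-sided, p = 0.1, the smallest value 3 against 3 arrays allow; adjusted p = 0.902 in limma). Of 8 glial and glioma marker genes, 4 lay at or above the median gene, led by VIM at 7.60, NES at 5.78 and GFAP at 5.62, whereas CD44 at 3.59, SOX2 at 3.75, S100B at 3.17 and CHI3L1 at 4.39 lay below it; these signals come from different probe sets and do not rank the RNAs. Of 13 markers of neurons, microglia, endothelial cells and oligodendrocytes, 4 lay at or above the median gene, RBFOX3 highest at 5.76. The 5 microglia markers averaged 3.90 to 3.98 over the knockdown arrays and 3.83 to 3.95 over the wild-type arrays. CD14 differed most among them, at 0.42 ± 0.13 (SE, adjusted p = 0.902, limma), and was named for that size. The rest ran from -0.16 (PTPRC) to 0.08 (CSF1R), and the median of the 5 was -0.013.

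Most LINC probe sets lay in the lower part of the signal range. The median member had a mean log2 signal of 4.03, with quartiles of 3.29 and 4.74 and a range of 2.15 to 7.50, while the median of all genes was 4.67. With all genes split by signal into bands of 25% each, 72 members fell in the dimmest band, 78 in the next, 36 in the one above and 20 in the brightest. Counted against the dimmest 40% of all genes, 120 members lay inside and 86 outside. No detection call enters these values, so dim probe sets may read background alone, and signals of different probe sets do not rank RNA amounts because each probe set has its own affinity. The spread of a member over the 6 arrays had a median SD of 0.15, near the 0.14 of all genes, and the standard error of a difference had a median of 0.12 for both.

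The highest signal belonged to LINC02939, with 7.55, 7.66 and 7.50 in knockdown replicates 1 to 3 and 7.62, 7.34 and 7.33 in the wild type. Wild-type replicate 1 lay within the knockdown range, so the groups overlapped at a difference of 0.14 ± 0.11 (log2, SE, n = 3 each). LINC01783 overlaps a U1 RNA pseudogene and a glutamic acid tRNA gene in the reference table. It was the most uneven of the bright members, at 6.91, 7.46 and 7.86 on the knockdown arrays and 7.42, 6.68 and 7.66 on the wild-type arrays. Its groups spread over the same range, and its difference of 0.16 became -0.13 when wild-type replicate 2 was left out and -0.07 when knockdown replicate 3 was. LINC00937 averaged 7.06 ± 0.17 on the knockdown arrays and 6.92 ± 0.07 on the wild-type arrays, and LINC03009 averaged 6.88 ± 0.25 and 6.77 ± 0.19 (SD, n = 3 each). The other six of the 10 brightest, LINC03048, LINC02716, LINC02983, LINC00965, LINC02908 and LINC02694, had mean signals from 6.00 to 6.51 and differences from -0.16 (LINC00965) to 0.12 (LINC02908). All 10 had overlapping groups, and 8 of the 10 had values above 0, beside 46.7% of all genes of the brightest band. Without knockdown replicate 2, LINC02908 became -0.013 and LINC02694 became -0.098.

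**Figure D1:**
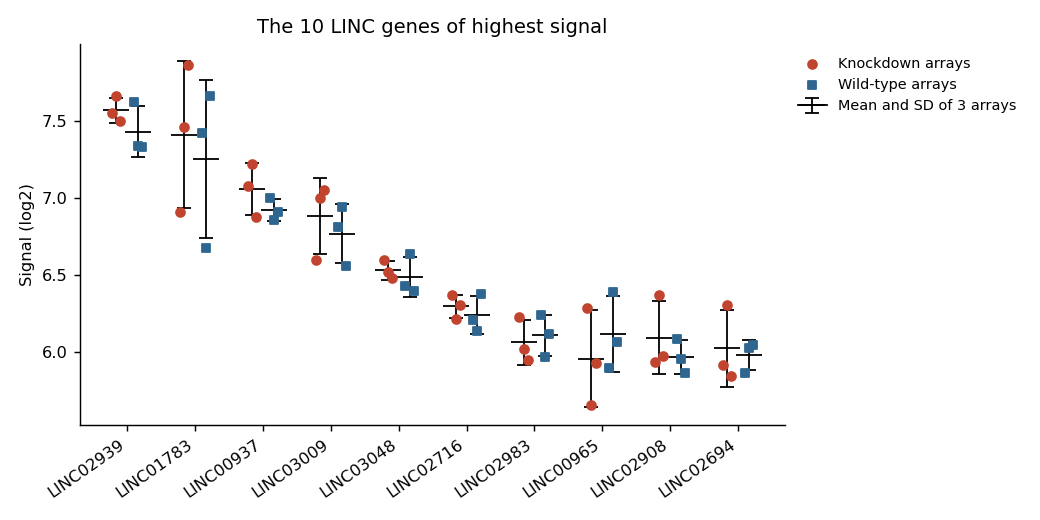
Log2 signal (vertical axis) of the 10 LINC genes of highest mean signal, with 1 point per array (circles, knockdown; squares, wild type) and bars for the mean and SD of 3 arrays. Knockdown and wild-type points overlap for every gene shown, and LINC01783 spreads from 6.68 to 7.86.

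No LINC gene differed between knockdown and wild type at an adjusted p under 0.05 in limma, and the smallest adjusted p among them was 0.902. The background was the same, since 0 of 18417 genes passed (0% called). At an unadjusted p under 0.05, limma listed 16 members, 13 with higher and 3 with lower knockdown values. That is 7.77% of the members beside 5.09% of all genes (3.02% higher and 2.06% lower). The split turned when knockdown replicate 2 was left out, to 4 higher and 7 lower (2.10% and 1.62% of all genes). Leaving out wild-type replicate 2 left 5 members, or 2.43%, beside 2.95% of all genes. Differences ranged from -0.38 to 0.45 on the log2 scale with a median absolute size of 0.10, and 21 members (10.2%) reached 0.25 in either direction, beside 8.1% of all genes.

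The groups did not overlap for 20 members, or 9.71%, beside 10.1% of all genes. The knockdown arrays were the higher ones for 15 of them (5.98% of all genes) and the lower ones for 5 (4.15% of all genes). After median centring the split was 15 and 8 (5.47% and 4.68% of all genes). With repeated quantile normalisation it was 14 and 9 (5.71% and 4.95% of all genes). Cyclic loess also gave 14 and 9 (5.79% and 5.14% of all genes). When knockdown replicate 2 was left out it was 19 and 17, so the excess of higher values was then nearly gone (9.72% and 8.42% of all genes). Under each of the 3 scalings 18 of the 20 genes were again without overlap. The 15 were LINC00052, LINC00161, LINC00205, LINC00482, LINC00528, LINC00598, LINC01446, LINC01558, LINC01854, LINC02363, LINC02591, LINC02903, LINC02914, LINC03106 and LINC03122, and the 5 were LINC00189, LINC00680, LINC01128, LINC01356 and LINC03040. Only 7 of the 20 had a mean signal at or above the median gene. The share without overlap is near the background, so it is not a result about LINC genes.

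Among those 7, LINC01854 stood furthest apart. It read 5.74, 5.88 and 5.80 on the knockdown arrays and 5.29, 5.26 and 5.56 on the wild-type arrays. The lowest knockdown array was above the highest wild-type array, with a difference of 0.44 ± 0.11 (log2, SE, n = 3 each; 95% confidence interval 0.19 to 0.69), and limma gave an unadjusted p of 0.0029, the smallest among the members, and an adjusted p of 0.902. Leaving out single arrays kept the difference of LINC01854 between 0.38 and 0.53.

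LINC00482, studied in bladder cancer among others, read 6.08, 6.28 and 5.99 on the knockdown arrays and 5.85, 5.69 and 5.88 on the wild-type arrays. Knockdown replicate 3 and wild-type replicate 3 were the closest across the groups, and the difference was 0.31 ± 0.11 (log2, SE, n = 3 each; adjusted p = 0.902, limma). LINC00205, studied in liver cancer, read 4.81, 5.16 and 4.83 against 4.64, 4.53 and 4.79. Knockdown replicate 2 was its highest array, and its difference of 0.28 became 0.17 without that array. LINC02914 read 4.73, 4.77 and 4.77 against 4.72, 4.54 and 4.58, so that the groups were only just apart, at 0.14 ± 0.10 (SE).

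In the other direction, LINC01356 read 4.92, 4.78 and 4.61 on the knockdown arrays and 5.31, 4.99 and 5.15 on the wild-type arrays. Every knockdown array was below every wild-type array, with a difference of -0.38 ± 0.12 (log2, SE, n = 3 each; 95% confidence interval -0.65 to -0.11; adjusted p = 0.902, limma). LINC00680 read 5.82, 5.89 and 5.56 against 6.00, 5.99 and 6.12, a difference of -0.28 ± 0.11 that became -0.18 without knockdown replicate 3. It overlaps the read-through gene LINC00680-GUSBP4 in the reference table, so its probe set may read both. LINC03040 had the tightest groups of the 3, at 4.67 ± 0.06 on the knockdown arrays and 4.84 ± 0.03 on the wild-type arrays (SD, n = 3 each), and a difference of -0.17 ± 0.10 (SE).

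**Figure D2:**
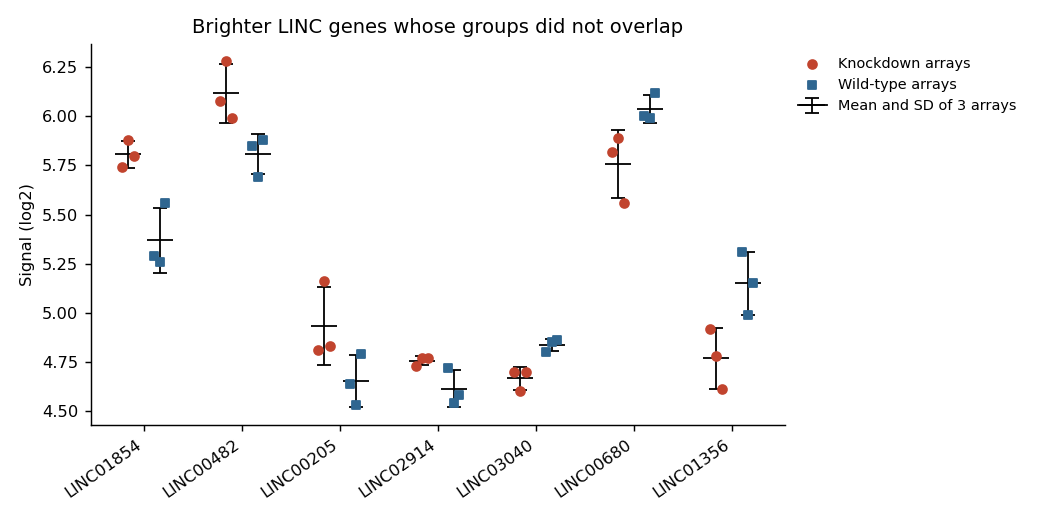
Log2 signal (vertical axis) of the 7 LINC genes with a mean signal at or above the median gene whose groups did not overlap, 1 point per array (circles, knockdown; squares, wild type), with bars for the mean and SD of 3 arrays. LINC01854, LINC00482, LINC00205 and LINC02914 have the higher points in the knockdown, and LINC03040, LINC00680 and LINC01356 in the wild type.

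Larger differences than those of LINC00482 were otherwise found mainly among dim members. LINC01446 read 2.66, 3.26 and 2.97 on the knockdown arrays and 2.47, 2.44 and 2.64 on the wild-type arrays, a difference of 0.45 ± 0.15 (log2, SE, n = 3 each) that became 0.30 without knockdown replicate 2. LINC02870 read 4.34, 4.55 and 3.80 against 4.0, 3.48 and 3.88, a difference of 0.44 with overlapping groups, and 0.28 without knockdown replicate 2. Both genes had mean signals below the median gene. LINC03106 differed by 0.37 (0.225 without wild-type replicate 2), LINC02905 by 0.35 and LINC01555 by 0.32 (0.195 without knockdown replicate 2). LINC01667 shows what 1 array can do: at 3.93, 2.91 and 2.73 against 2.98, 2.98 and 2.57, its difference of 0.35 became -0.02 without knockdown replicate 1.

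Among the lowest differences, LINC00189 read 2.77, 2.55 and 2.42 on the knockdown arrays and 2.82, 2.97 and 2.92 on the wild-type arrays, at -0.32 ± 0.12 (log2, SE, n = 3 each). LINC01128 followed at -0.25, with groups that did not overlap, and became -0.13 without knockdown replicate 3. LINC02291 at -0.24, LINC00544 at -0.23, LINC02901 at -0.20 and LINC02877 at -0.19 all had overlapping groups. LINC00544 became -0.05 without knockdown replicate 1, LINC02291 became -0.08 and LINC02877 became 0.08 without knockdown replicate 2, and LINC02901 became -0.07 without knockdown replicate 3.

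Of 19 LINC genes listed for a described role, 5 were read by a probe set of their own. LINC00052, a breast cancer transcript whose nearest measured protein-coding gene is the neurotrophin receptor gene NTRK3, read 3.38, 3.20 and 3.04 on the knockdown arrays and 2.99, 2.88 and 2.96 on the wild-type arrays. Its groups did not overlap, at a difference of 0.26 ± 0.11 (log2, SE, n = 3 each; adjusted p = 0.902, limma), in the dimmest 25% of genes. The remaining 4 had overlapping groups and differences close to 0. LINC00339, studied at an endometriosis risk locus, gave -0.06 ± 0.10, and LINC01116, which has been studied in glioma, gave -0.02 ± 0.15 (SE). LINC00312, described in nasopharyngeal carcinoma, gave -0.03 ± 0.13, and LINC00467, reported to encode a mitochondrial micropeptide, gave -0.02 ± 0.12 (SE). The wild-type arrays of LINC01116 read 4.35, 4.65 and 4.75 and the knockdown arrays 4.28, 4.67 and 4.73, so replicate 1 was the lowest array in both groups.

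As a group, more members had higher than lower values in the knockdown. In bulk RNA, more cells expressing a gene and more RNA per cell cannot be told apart. Values above 0 were found for 129 of the 206 (62.6%), beside 52.5% of all genes, and values below 0 for 76, with 46.5% of all genes below 0. The median log2 difference was 0.05, beside 0.01 for all genes. The median lay above that of all genes in each signal band. It was 0.05 in the dimmest, 0.04 and 0.055 in the middle bands and 0.085 in the brightest, beside 0.01, 0.015, 0.02 and -0.01 for all genes of those bands. In the brightest band 17 of 20 members lay above 0, the exceptions being LINC00680, LINC00965 and LINC02983, beside 46.7% of all genes of that band.

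**Figure D3:**
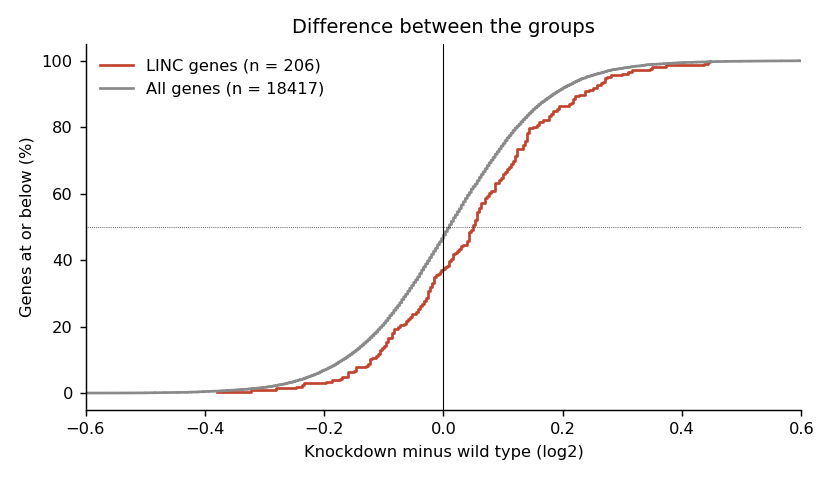
Share of genes (vertical axis, percent) at or below a given log2 difference, knockdown minus wild type (horizontal axis, shown from -0.6 to 0.6), for 206 LINC genes and all 18417 genes. The LINC curve lies to the right of the curve of all genes around 0, and the 2 cross the 50% line at 0.05 and 0.01.

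That lean moved with 1 array. Knockdown replicate 2 was the highest of the 6 arrays for 80 of the 206 members (38.8%), beside 25.5% of all genes, and no other array was highest for more than 25 members. The median member lay 0.09 above its own 6-array mean on that array, beside 0.02 over all genes. On the other five arrays the median lay between -0.04 (wild-type replicate 2) and -0.01. For members in the brightest band the median on knockdown replicate 2 was 0.19, beside -0.008 for all genes of that band. Of the 15 genes whose knockdown arrays were all higher, 9 had knockdown replicate 2 as their highest array. The highest array of such genes must be a knockdown array. The matching share over all genes is not given here, so no conclusion is drawn from that count.

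Without knockdown replicate 2 the median difference of the members was 0.0025, beside 0.0017 for all genes, and 105 members lay above 0 and 99 below. In the brightest band 12 of 20 were then above 0, beside 50.5% of all genes over all bands. Without any other single array the median lay between 0.04 and 0.07 and between 124 and 141 members lay above 0. Centring, repeated quantile normalisation and cyclic loess left the median at 0.035 to 0.037, with the median of all genes then between -0.003 and 0, and 123 to 125 members above 0. The part of that array in the difference between groups is given by these values, and what sets the array apart was not tested.

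**Figure D4:**
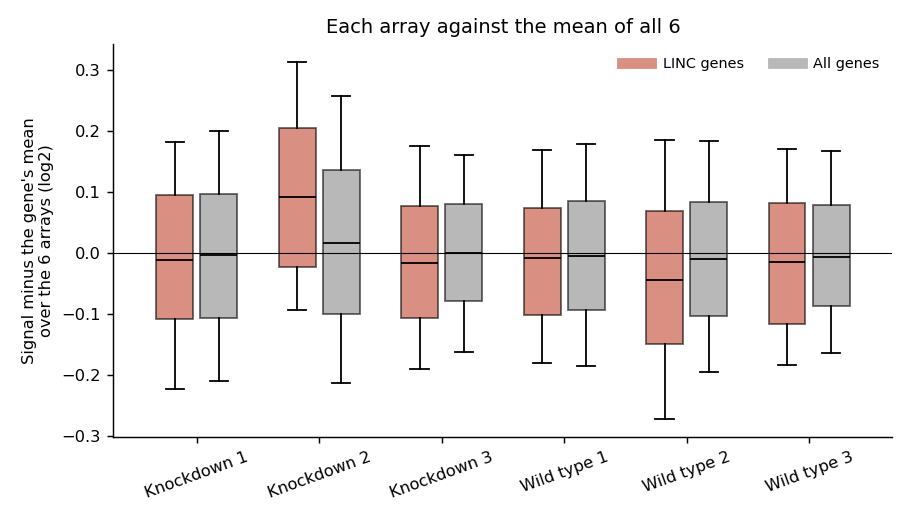
Log2 signal minus the gene's own mean over the 6 arrays (vertical axis) for each array, with boxes from the lower to the upper quartile, a line at the median and whiskers from the 10th to the 90th percentile, for LINC genes and for all genes. The LINC box of knockdown replicate 2 has its median at 0.09, and the LINC medians of the other five arrays lie between -0.04 and -0.01.

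A gene with several probe sets can give a further reading, but probe sets with identical values are not separate readings. Of the 206 members, 195 had 1 probe set and 11 had more, 244 probe sets in all. LINC00965 had 26 probe sets but only 13 distinct profiles, so the 26 are not separate readings. All 26 gave values below 0, from -0.16 to -0.007. That shared sign rested on 1 array, since 21 of the 26 lay above 0 and 5 below when knockdown replicate 2 was left out. Its groups overlapped on the probe set used here, at 6.29, 5.66 and 5.93 on the knockdown arrays and 5.90, 6.39 and 6.07 on the wild-type arrays. LINC02591 had 3 probe sets with 2 distinct profiles, at 0.22 and 0.46, which became 0.12 and 0.14 when knockdown replicate 2 was left out. The probe sets of LINC01558, LINC02487 and LINC02538 were pairs of identical readings and add nothing. For LINC00910, LINC01140, LINC01296 and LINC01547 the probe sets fell on both sides of 0, with differences between -0.12 and 0.06.

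Many long non-coding RNAs are studied for an effect on the gene beside them, so each member was set beside its nearest measured protein-coding gene in the reference table. This gave 201 pairs with 191 different neighbours, 16 overlapping and 185 adjacent. The neighbours' median log2 difference was 0.02, beside 0.05 for the members of these pairs. A member and its neighbour had the same sign in 102 of the 201 pairs (50.7%). Across the pairs Pearson's r was 0.06 and Spearman's rho 0.06, a description over genes read on the same 6 arrays. In the 16 overlapping pairs r was -0.31, with the members that overlap HSF2BP among them.

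HSF2BP, a binding partner of heat shock factor 2, overlaps both LINC00313 and LINC00319, and these genes were singled out after their values were seen. HSF2BP read 5.15, 5.03 and 5.01 on the knockdown arrays and 4.75, 4.32 and 4.63 on the wild-type arrays. Its groups did not overlap, at a difference of 0.50 ± 0.12 (log2, SE, n = 3 each; adjusted p = 0.902, limma). LINC00313 gave 0.12 and LINC00319 gave -0.15, so the members that overlap the same gene lay on either side of 0.

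For the brighter members whose groups did not overlap, the neighbours' differences lay between -0.09 and 0.14. SMPD4, a sphingomyelinase gene beside LINC01854, gave -0.09, and SLC38A10, a gene of the amino acid transporter family beside LINC00482, gave 0.10. TAFA3 beside LINC01356 gave 0.09, PRIM2, which encodes the large primase subunit, gave 0.09 beside LINC00680, and MRPL14, a mitochondrial ribosomal protein gene, gave 0.07 beside LINC03040. BCL11B, a transcription factor gene beside LINC02914, gave 0.14, equal to the 0.14 of the member at 2 decimals. The groups of all 6 neighbours overlapped. The sign of the neighbour was opposite to that of the member in 4 of these 6 pairs, namely those of LINC01854, LINC01356, LINC00680 and LINC03040. When knockdown replicate 2 was left out, SMPD4 became 0.0017 and MRPL14 became -0.078, which turns the sign of the first and of the last of these neighbours. When knockdown replicate 1 was left out, PRIM2 became 0.013 and TAFA3 became 0.035.

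**Figure D5:**
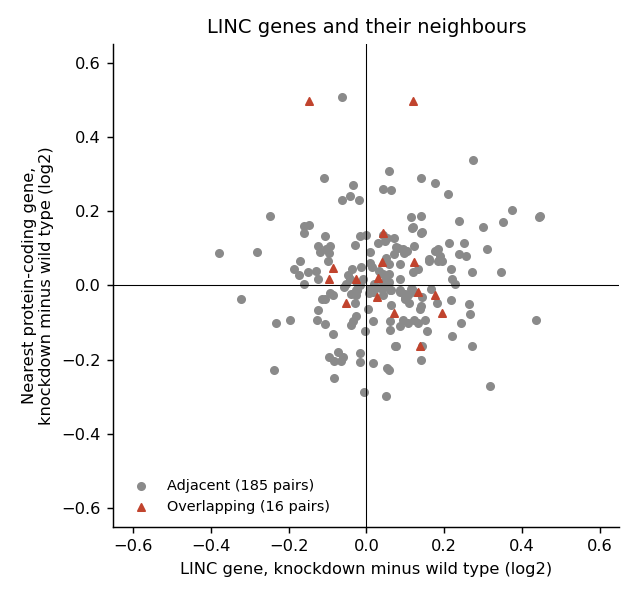
Log2 difference of the nearest measured protein-coding gene (vertical axis) against that of the LINC gene (horizontal axis), 1 point per pair, circles for 185 adjacent and triangles for 16 overlapping pairs. The points form a round cloud about 0 (r = 0.06), and the pair of triangles near 0.5 is HSF2BP with LINC00313 and LINC00319.

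Long non-coding RNAs with names of their own were read for comparison: 20 of 54 listed genes had a probe set with 1 symbol. Of these 20, 11 lay above 0 and 9 below, with a median of 0.02, and none passed the threshold. Its sign depended on single arrays: the median lay between -0.02 and -0.007 when any of knockdown replicates 2 and 3 and wild-type replicates 1 and 2 was left out, and it was -0.12 with the dimmest 40% of genes left out. MALAT1, a nuclear speckle RNA, had the largest size, at 5.07, 5.42 and 5.68 on the knockdown arrays and 5.58, 5.79 and 5.76 on the wild-type arrays. Knockdown replicate 3 lay within the wild-type range, and the difference of -0.32 ± 0.15 (log2, SE, n = 3 each) became -0.16 without knockdown replicate 1. The groups did not overlap for 4 of the 20 (20%), beside 10.1% of all genes. Knockdown values were higher for 3 (5.98% of all genes) and lower for 1 (4.15% of all genes). The higher ones were MEG3, an imprinted RNA often silenced in tumours, at 0.25 ± 0.12, MIR99AHG, a microRNA host gene, at 0.22 ± 0.10, and ZFAS1, a small nucleolar RNA host gene, at 0.16 ± 0.10 (SE). MEG3 became 0.13 when wild-type replicate 3 was left out, and ZFAS1 became 0.105 when knockdown replicate 2 was. The lower one was TERC, the template RNA of telomerase, at 8.03 ± 0.12 against 8.33 ± 0.05 (SD, n = 3 each; adjusted p = 0.902, limma). RPPH1, the RNA of RNase P, had the highest signal at 9.95 with a difference of -0.14 ± 0.14, and RMRP, the RNA of RNase MRP, gave -0.24 ± 0.12 (SE). These became -0.02 and -0.12 when knockdown replicate 2 was left out. The P68 cofactor RNA SRA1 read 5.28, 5.14 and 4.97 on the knockdown arrays and 5.10, 4.94 and 4.96 on the wild-type arrays, an overlap at 0.13 ± 0.11 (SE).

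Factors that process or degrade nuclear RNA were read as the machinery around these transcripts. Of 34 measured genes out of 43 listed names, some of them older names of the same gene, 23 lay below 0 and 11 above (median -0.07, beside 0.01 for all genes), and none passed the threshold. With knockdown replicate 3 or wild-type replicate 1 left out the median was -0.12, and without knockdown replicate 2 it was -0.05. The groups did not overlap for 8 of the 34 (23.5%), 5 lower and 3 higher. The share over all genes was 10.1% (4.15% lower and 5.98% higher). INTS6, a subunit of the Integrator complex that cleaves nascent RNA, had the largest size at -0.35 ± 0.16 (log2, SE, n = 3 each) with overlapping groups. Its difference became -0.55 without wild-type replicate 1 and -0.25 without wild-type replicate 2. INTS9, another subunit of that complex, read 5.13, 4.86 and 5.12 on the knockdown arrays and 5.44, 5.33 and 5.37 on the wild-type arrays. All knockdown arrays of INTS9 were lower, at -0.34 ± 0.11 (SE, adjusted p = 0.902, limma), which became -0.255 without knockdown replicate 2. Among the other listed Integrator subunits, INTS11 was higher in the knockdown without overlap, at 0.23 ± 0.10 (SE). INTS1 gave 0.11 and INTS3 gave -0.02. EXOSC4, a core subunit of the exosome, was higher in the knockdown at 0.28 ± 0.12 (SE), with 6.16, 6.42 and 6.50 against 5.99, 6.12 and 6.13 and no overlap. The difference of EXOSC4 became 0.21 without knockdown replicate 3. INTS9, INTS11 and EXOSC4 were chosen after their values were seen.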

How the data were processed

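Total RNA of 6 U-87 samples was hybridised to Affymetrix arrays. The deposited values are log2 signals per probe set made with RMA, per the submitters' processing notes. RMA gives all arrays about the same signal distribution and thereby removes a shift common to most genes. The probe annotation paired 19460 probe sets with 1 symbol, 1754 with several (50 of these name a LINC gene and were not analysed here) and 7882 with none. The array's genome build is not given in the sources here, so no gene coordinates are printed for it; names, neighbours, overlaps and promoter sequence come from GRCh38.p14.

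All 18417 genes were fitted with limma 3.58.1 in R 4.3.3 (lmFit and eBayes, group as the only term, two-sided, Benjamini-Hochberg threshold 0.05), tested first on simulated data. The simulated differences were larger than any found among the members, so that test does not cover the sizes seen here. Named genes were the 10 brightest members, the 8 highest and 8 lowest differences, members at or above the median gene without overlap, and a list of described roles. Members and lists were chosen with earlier results of these data known. Alternatives were cyclic loess, centring, repeated quantile normalisation, removal of the dimmest 40% of genes, other probe set rules, variance models, array weights, a threshold of 0.01, a replicate block and each array left out. The number of arrays limits the precision.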

Additional observations from a re-analysis of the deposited data

How the results depend on the processing

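The count of LINC genes past the adjusted threshold was 0 under every alternative, a threshold of 0.01 included, and no named LINC gene had an adjusted p under 0.661. The 16 members at an unadjusted p under 0.05 became 10 with repeated quantile normalisation and 7 with the dimmest 40% of genes left out, and 5 to 19 with single arrays left out. The shares of all genes at that p were 4.97%, 5.13% and 2.95% to 7.35%, and the members' own were 4.85%, 8.14% and 2.43% to 9.22%. The 20 members without overlap became 9 with the dimmest 40% left out (10.5% of members and of all genes), and 29 to 48 with single arrays left out, where fewer arrays make overlap rarer (16.8% to 23.3% of all genes then). The median difference of 0.05 ran from 0.0025 (without knockdown replicate 2) to 0.066 with single arrays left out, and for members that overlap no gene from -0.005 to 0.064. The median signal ran from 4.02 to 4.06, the correlation with neighbours from 0.008 to 0.067 with single arrays left out and -0.07 with the dimmest 40% left out, and the DDX5 difference from -0.58 to -0.36.

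Of the 34 named LINC genes, 23 kept their direction under every alternative, and 9 turned only when an array was left out. With array weights LINC00467 gave 0.0059 and LINC02694 gave -0.038. With single arrays left out the ranges were -0.14 to 0.092 for LINC00312, -0.11 to 0.005 for LINC00339, -0.098 to 0.062 for LINC00467, -0.14 to 0.12 for LINC01116, -0.023 to 0.58 for LINC01667, -0.13 to 0.41 for LINC01783, -0.098 to 0.13 for LINC02694, -0.55 to 0.082 for LINC02877, -0.013 to 0.20 for LINC02908, -0.125 to 0.022 for LINC02983 and -0.0017 to 0.12 for LINC03048. Among neighbours they were -0.17 to 0.0017 for SMPD4 and -0.078 to 0.15 for MRPL14. With a replicate block, 0 members passed the adjusted threshold. Deviations from the group means correlated by 0.27, -0.03 and 0.13 for replicate numbers 1, 2 and 3. Unlike numbers were not compared in this way, so whether the numbers pair the arrays was not decided. With 3 arrays a group and a median standard error of 0.12, differences of the sizes seen here were not detectable one gene at a time.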
